A study of Mus musculus with 6 samples.

Results

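Imprinted genes of the mouse were examined in pancreatic islets that lacked Sel1L in their β cells. The set was a list of 39 imprinted genes that included Nnat, and a gene counted as measured where a probe set of the arrays carried its symbol alone. By this rule 35 of the 39 genes were measured, by 38 of the 41345 probe sets, among 22180 genes in all. H19, Snrpn and Rtl1 shared every probe set with another gene symbol and Zrsr1 was matched to none, so these 4 are not analysed here. The tested islets came from mice with floxed Sel1l alleles and a Cre recombinase knocked into the insulin gene Ins1, and the wildtype islets from littermates with the floxed alleles and no Cre, all on the C57BL/6J background, aged 5 weeks and labelled female. Each genotype had 3 Affymetrix arrays of hand-picked islets that had rested overnight in culture; the number of animals behind an array is not stated. Cre was driven from a β-cell gene, so the other islet cells kept Sel1l, which encodes the adaptor of the HRD1 ubiquitin ligase that clears misfolded proteins from the endoplasmic reticulum (ER).

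Imprinted genes are expressed mainly from 1 of the parental alleles, as fixed by DNA methylation laid down in the germ line. They lie in clusters, and many control fetal growth, hormone action or energy balance. Neuronatin, the product of Nnat, is a small membrane protein of the ER that is made from the paternal allele. In mouse β cells it is known to associate with the signal peptidase complex, which removes the signal peptide of preproinsulin.

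The sequences that lie just before the annotated starts of Nnat, of Blcap, the gene whose intron holds Nnat, and of Tssc4 and Zim1, the members with the next largest differences, are shown with their CpG pairs, the sites that DNA methylation can occupy. Each is the run of 250 bases before the RefSeq start in build GRCm38.p6, 5′ to 3′ on the strand of the gene, with CpG pairs in capitals. They lie at chr2:157559828-157560077 (plus strand) for Nnat, chr2:157566362-157566611 (minus strand) for Blcap, chr7:143069118-143069367 (plus strand) for Tssc4 and chr7:6696433-6696682 (minus strand) for Zim1.
Nnat: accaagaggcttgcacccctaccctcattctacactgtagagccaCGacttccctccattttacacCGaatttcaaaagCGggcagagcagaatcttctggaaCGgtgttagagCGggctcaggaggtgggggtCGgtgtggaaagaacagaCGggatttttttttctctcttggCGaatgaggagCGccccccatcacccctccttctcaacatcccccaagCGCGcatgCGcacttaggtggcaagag
Blcap: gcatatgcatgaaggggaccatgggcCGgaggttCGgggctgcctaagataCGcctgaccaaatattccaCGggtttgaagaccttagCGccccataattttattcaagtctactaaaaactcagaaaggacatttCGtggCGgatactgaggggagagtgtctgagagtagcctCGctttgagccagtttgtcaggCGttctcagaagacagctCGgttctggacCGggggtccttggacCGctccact
Tssc4: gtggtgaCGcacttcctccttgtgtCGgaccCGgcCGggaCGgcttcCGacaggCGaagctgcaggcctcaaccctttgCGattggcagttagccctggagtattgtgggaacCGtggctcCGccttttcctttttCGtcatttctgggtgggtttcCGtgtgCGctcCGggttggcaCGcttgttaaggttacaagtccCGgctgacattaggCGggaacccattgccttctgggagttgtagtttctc
Zim1: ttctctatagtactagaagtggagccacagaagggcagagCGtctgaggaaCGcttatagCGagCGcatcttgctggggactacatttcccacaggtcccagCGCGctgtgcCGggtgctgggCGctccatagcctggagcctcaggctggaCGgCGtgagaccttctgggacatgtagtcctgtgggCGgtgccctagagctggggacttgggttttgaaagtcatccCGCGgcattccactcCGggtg
The windows of Nnat and Blcap held 12 CpG pairs each, that of Zim1 14 and that of Tssc4 17, against a median of 6 over all 32851 RefSeq windows of this length and a median of 11 over the 47 windows of the 31 listed genes that had one. The E-box CANNTG, which reads the same on both strands, occurred in the window of Blcap and not in those of Nnat, Tssc4 or Zim1, and 66.2% of all windows held it. The letters TGCTGA, the core of sites for Maf factors, were searched on both strands and occurred in none of the 4, while 16.1% of all windows held them. DNA methylation was not measured on these arrays.

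All values are log2 summaries by RMA as the authors deposited them, and a difference is Sel1L-deficient minus wildtype on that scale. The arrays had medians of 3.08 to 3.16 and correlated with each other at 0.988 to 0.992 across genes. Sel1L-deficient replicate 3 correlated most with wildtype replicate 3 (0.9914), above replicates 1 and 2 of its own genotype (0.9907 and 0.9893). The targeted gene went with the labels, since Sel1l read 7.73, 7.65 and 7.68 in Sel1L-deficient islets and 8.46, 8.56 and 8.76 in wildtype islets. Ins2 averaged 10.6 in Sel1L-deficient islets and 11.1 in wildtype islets, and Ins1 was not analysed here. Replicate 3 of each genotype had low Xist (3.08 and 2.93) and raised Y-linked transcripts, against the label of female, while the other 4 arrays did not. The 1088 odorant receptor genes, which islets are not known for, served as a description of background, with a median of 1.56 and a 95th percentile of 2.48.

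Nnat was the 1 measured imprinted gene that passed the test, and it was lower in Sel1L-deficient islets. Its brighter probe set read 4.92, 4.83 and 5.07 in Sel1L-deficient islets, against 6.52, 5.79 and 6.53 in wildtype islets. All 3 Sel1L-deficient arrays lay below the lowest wildtype array, which was wildtype replicate 2. The means were 4.94 ± 0.12 in Sel1L-deficient islets and 6.28 ± 0.42 in wildtype islets (SD, n = 3 each). The log2 difference was -1.34 ± 0.20 (SE), or 2.53-fold lower (limma, Benjamini-Hochberg adjusted p = 0.0496 over 22180 genes), with a 95% interval of -1.79 to -0.88. The adjusted p lay close to the threshold of 0.05. It was 0.258 when every probe set of the table was tested on its own, where 3 of 41345 probe sets passed (0.00726%). It also missed the threshold in 5 of the 6 fits that left out 1 array, from 0.105 without Sel1L-deficient replicate 3 to 0.228 without Sel1L-deficient replicate 2, and on the 4 arrays with high Xist (0.257). The direction was the same in all 15 alternatives, with differences of -1.58 to -0.84.

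**Figure D1:**
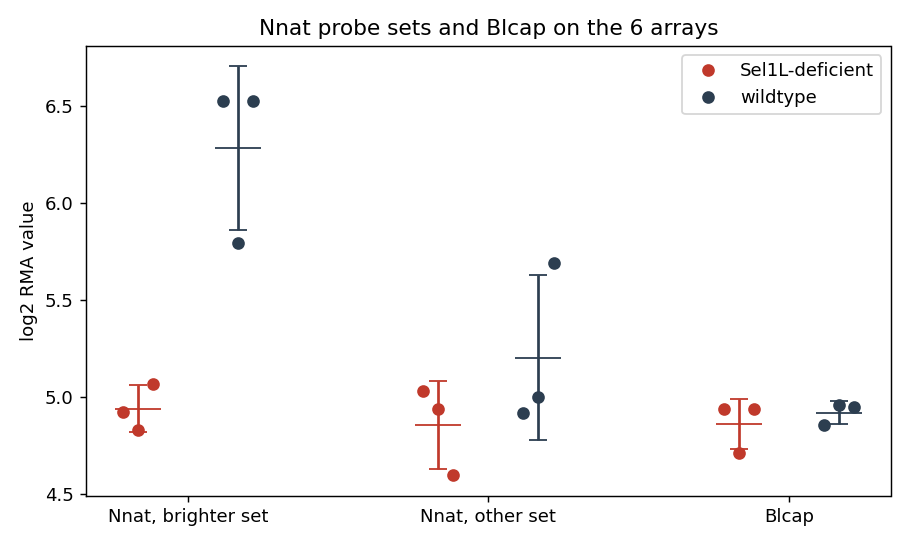
Log2 RMA values (vertical axis) of the brighter and the other Nnat probe set and of Blcap on each array, with Sel1L-deficient arrays left of wildtype arrays; points are arrays, and bars are the mean ± SD of 3. On the brighter Nnat set the Sel1L-deficient arrays lie at 4.83 to 5.07, all below the wildtype arrays at 5.79 to 6.53, while the groups overlap on the other set and for Blcap.

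The other Nnat probe set did not separate the genotypes. It read 5.03, 4.94 and 4.60 in Sel1L-deficient islets and 4.92, 5.00 and 5.69 in wildtype islets. Its groups overlapped, and wildtype replicate 3 stood above the other 5 arrays. The difference was -0.35, with a 95% interval of -0.90 to 0.21 (limma, adjusted p = 0.81 over all probe sets). The mean of both sets differed by -0.84 (limma, adjusted p = 0.168).

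The identifiers of the array offered a check on what the other set measures, since they run along each strand of a chromosome. Among genes with 1 probe set whose 6 nearest named neighbours by identifier were all of 1 strand, that strand was the gene's own for 99.9% of 12782 probe sets. With genes of several probe sets included, as Nnat is, it was so for 96.9% of 13944. The share was thus lower among genes with several probe sets. Nnat lies on the plus strand. The 6 neighbours of the brighter Nnat set were plus-strand genes, and all 6 of the other set were minus-strand genes, with Blcap as the nearest named probe set before it. For the members the strand of most neighbours was taken, which all 6 shared except for Blcap, Gnas and the brighter Plagl1 set, with 5 each. Of the 32 member probe sets for which the strand could be read in this way, 28 lay among neighbours of the gene's own strand. The exceptions were the other Nnat set, the dimmer sets of Plagl1 and Ube3a, and the single-symbol set of Meg3. Probe sequences were not analysed here, so whether these 4 sets detect the opposite strand was not tested.

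The dimmer Ube3a set read 3.04, 3.55 and 3.56 in Sel1L-deficient islets and 3.21, 3.09 and 2.75 in wildtype islets. These groups overlapped, with a difference of 0.37 (95% interval -0.09 to 0.83; limma, adjusted p = 0.742 over all probe sets). The dimmer Plagl1 set stayed within 1.12 to 1.56 on all 6 arrays, at the level of odorant receptor genes.

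Blcap, named from bladder cancer and imprinted in brain, did not pass the test. It read 4.94, 4.71 and 4.94 in Sel1L-deficient islets and 4.85, 4.96 and 4.95 in wildtype islets. The difference was -0.06, with a 95% interval of -0.31 to 0.19. The genotype difference of Nnat minus Blcap, taken within each array, was -1.28, with exact permutation p = 0.1 (two-sided), the smallest that 3 against 3 allows, and 0.25 after Benjamini-Hochberg adjustment over 5 such pairs.

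The other pairs of a gene that lies inside or across another were described in the same way. Peg13, a non-coding RNA within the vesicle-traffic gene Trappc9, differed by -0.12 and its host by -0.15. Airn, the non-coding RNA that silences the paternal allele of Igf2r, differed by 0.10 and Igf2r by -0.20. Mcts2, a retrogene inside H13, differed by -0.09 and H13 by 0.14. Nap1l5, a retrogene inside Herc3, differed by -0.30 and Herc3 by -0.12. In these 4 pairs the exact permutation p of the inner minus the outer difference lay between 0.1 and 0.7 (two-sided), and after adjustment between 0.25 and 0.7. Outside the Nnat pair the genotypes did not overlap for Peg13, Trappc9, Mcts2 and Igf2r, which were lower in Sel1L-deficient islets, and for H13, which was higher, while 15.1% of all genes did not overlap. None of these 5 genes passed the test.

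Of the 35 measured genes 1 fell, 0 rose and 34 did not pass (limma adjusted p under 0.05). Over all genes 0.243% passed, 0.153% as lower and 0.0902% as higher. At an unadjusted p under 0.05 there were 6 members, or 17.1%, against 9.48% of all genes. In 13 members, or 37.1%, the 3 values of one genotype lay wholly above the 3 of the other, against 15.1% of all genes. Above the odorant receptor level the share was 43.3% of 30 members, against 18% of all such genes. Of the 13 members, 9 were lower and 4 higher in Sel1L-deficient islets, where all genes had 7.84% lower and 7.22% higher. The median difference was -0.09 over the 35 members and 0.000441 over all genes. The median size of a difference, whatever its sign, was 0.15 over the members and 0.11 over all genes. A difference of at least 0.5 occurred in 1 member, Nnat, and in 2.8% of all genes.

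**Figure D2:**
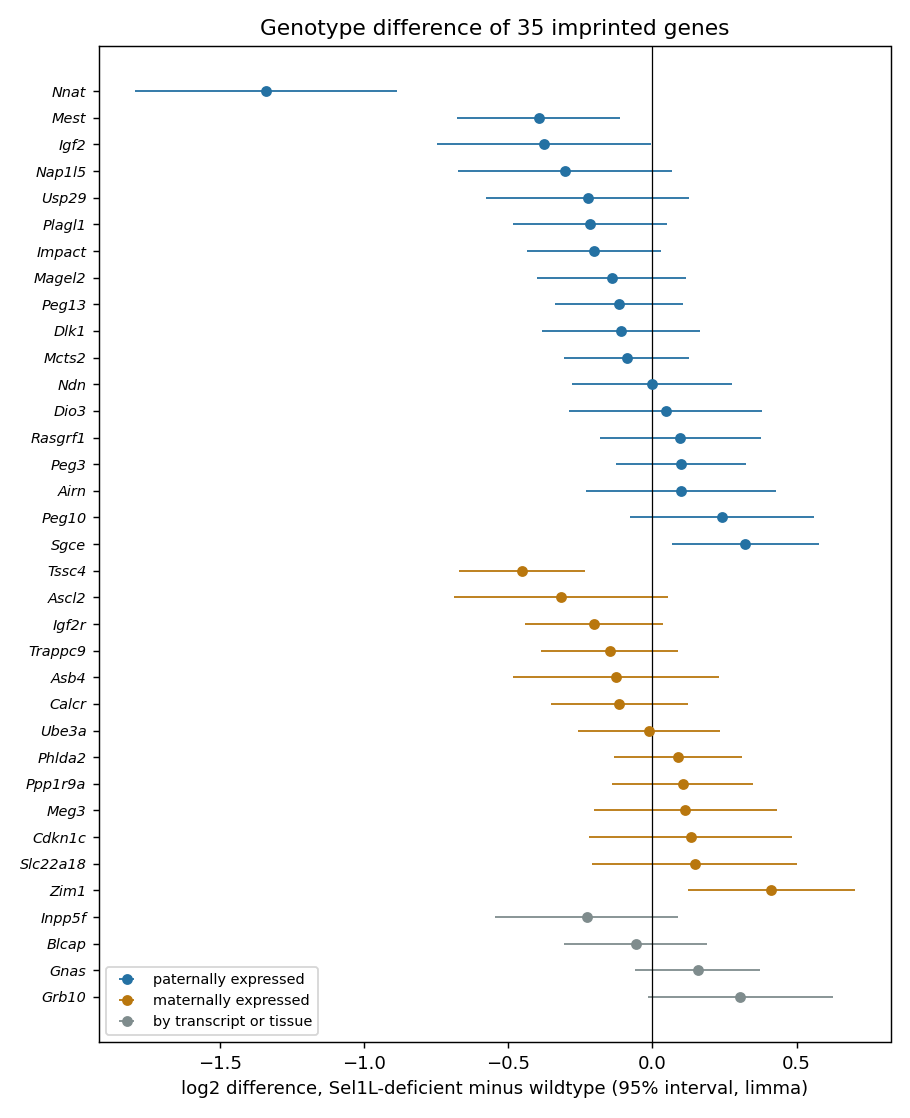
Log2 difference, Sel1L-deficient minus wildtype (horizontal axis), of the 35 measured genes with 95% intervals from limma, grouped by the parental allele they are known to use in the mouse. Nnat stands at -1.34, and the other 34 lie between -0.45 and 0.41.

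Paternally and maternally expressed members were set side by side by their counts. Of the 21 paternally expressed genes 18 were measured, and 1 fell, 12 had a negative and 6 a positive difference, with a median of -0.11 and a range of -1.34 to 0.32. Without Nnat their median was again -0.11. Of the 14 maternally expressed genes 13 were measured, 0 passed, 7 had a negative and 6 a positive difference, and the median was -0.01 with a range of -0.45 to 0.41. The 3 values of one genotype lay apart from those of the other in 8 of the 18 paternally expressed genes (6 lower, 2 higher). They did so in 4 of the 13 maternally expressed genes (3 lower, 1 higher). These were 44.4% and 30.8% of the classes, against 15.1% of all genes (7.84% lower, 7.22% higher). Above the odorant receptor level the shares were 50% and 40%, against 18% of all such genes. The maternal median took either sign among the alternatives, from -0.069 to 0.089, and the paternal median lay between -0.14 and -0.094. The remaining 4 genes, Blcap, Gnas, Grb10 and Inpp5f, were placed in neither class, for allele use that differs by transcript or tissue. Their median was 0.05. That reason was not applied throughout, since the maternal class kept genes imprinted in only some tissues, among them Ube3a. The maternal median of -0.01 was the value of Ube3a itself. The arrays do not tell the parental alleles apart, so these are total levels. The classes are those known for the mouse in general, and whether a gene keeps to its class in islets was not tested.

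Besides Nnat, the members with an unadjusted p under 0.05 were Tssc4, Zim1, Mest, Sgce and Igf2, none of which passed after adjustment, and they are named after their values had been seen. Tssc4, a maternally expressed gene of the distal chromosome 7 cluster whose human product takes part in spliceosome assembly, read 5.79, 5.80 and 5.80 in Sel1L-deficient islets and 6.32, 6.23 and 6.21 in wildtype islets. The groups stood clear of each other, with a difference of -0.45 ± 0.10 (SE; limma, adjusted p = 0.181). Mest, a paternally expressed gene for a hydrolase-like protein of the ER, read 6.23, 6.27 and 5.99 in Sel1L-deficient islets and 6.65, 6.62 and 6.40 in wildtype islets. Its groups also stood apart, by -0.39 ± 0.12 (SE; limma, adjusted p = 0.358).

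Zim1 and Sgce were the members with the largest positive differences among those with an unadjusted p under 0.05. Zim1, a maternally expressed zinc-finger gene next to Peg3, read 9.13, 8.97 and 9.37 in Sel1L-deficient islets and 8.81, 8.77 and 8.66 in wildtype islets. All 3 Sel1L-deficient arrays were above the wildtype arrays, with a difference of 0.41 ± 0.13 (SE; limma, adjusted p = 0.348). Sgce, which encodes ε-sarcoglycan and is paternally expressed, read 6.23, 6.17 and 6.03 in Sel1L-deficient islets and 5.85, 5.92 and 5.69 in wildtype islets. Its difference was 0.32 ± 0.11 (SE; limma, adjusted p = 0.406), again without overlap.

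**Figure D3:**
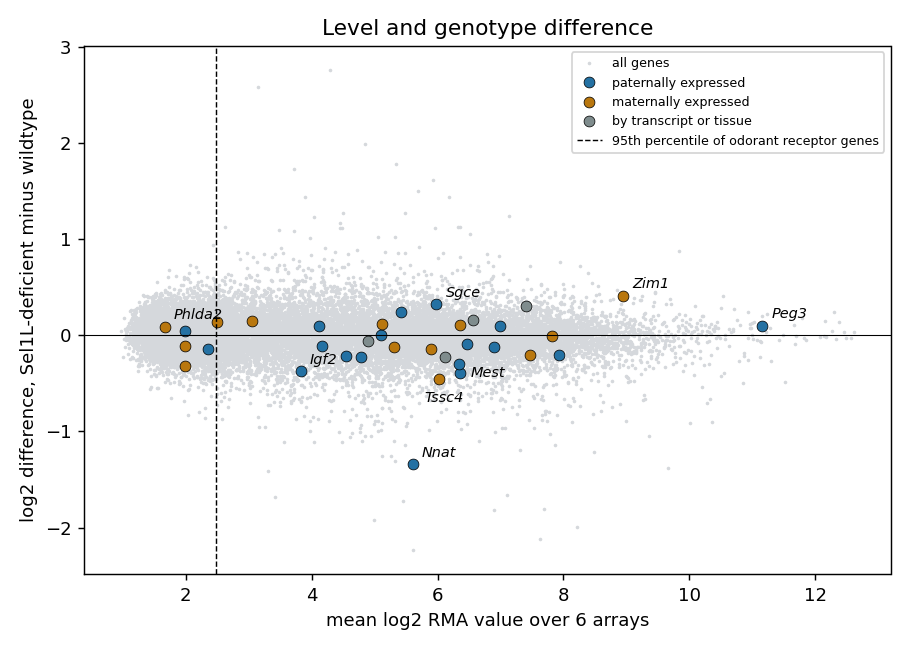
Mean log2 RMA value over 6 arrays (horizontal axis) and log2 difference, Sel1L-deficient minus wildtype (vertical axis), of the 35 members (large points, by parental class) over all 22180 genes (grey), with the 95th percentile of odorant receptor genes at 2.48 as a dashed line. Nnat lies below the other members, and 5 members lie left of the line.

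The growth axis of imprinted genes comprises the growth factor gene Igf2, the receptor gene Igf2r whose product clears IGF2, the adaptor gene Grb10 that restrains insulin and IGF1 receptors, and the growth inhibitors Cdkn1c and Phlda2. None of the 5 passed. Igf2 read 3.78, 3.36 and 3.76 in Sel1L-deficient islets and 3.79, 4.25 and 4.0 in wildtype islets. The highest Sel1L-deficient and the lowest wildtype array of Igf2 nearly met, and the difference was -0.38 (95% interval -0.75 to -0.0039; limma, adjusted p = 0.52). Grb10 read 7.67, 7.75 and 7.27 in Sel1L-deficient islets and 7.29, 7.28 and 7.21 in wildtype islets. Sel1L-deficient replicate 3 fell among the wildtype arrays, and the difference was 0.30 (95% interval -0.015 to 0.62). Igf2r read 7.42, 7.37 and 7.31 in Sel1L-deficient islets and 7.44, 7.62 and 7.65 in wildtype islets, a difference of -0.20 (95% interval -0.44 to 0.04). The cyclin-dependent kinase inhibitor gene Cdkn1c averaged 2.57 in Sel1L-deficient islets and 2.44 in wildtype islets, near the top of the odorant receptor range, and Phlda2 averaged 1.71 and 1.63 in the same order, within that range.

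Genes with ties to β-cell growth or diabetes followed. Plagl1, a zinc-finger gene whose overexpression underlies transient neonatal diabetes in humans, averaged 4.45 in Sel1L-deficient islets and 4.66 in wildtype islets on its brighter set, a difference of -0.22 (95% interval -0.48 to 0.05). Rasgrf1, which encodes an exchange factor for Ras, read 7.15, 6.99 and 6.97 in Sel1L-deficient islets and 7.07, 6.74 and 7.02 in wildtype islets. Its groups overlapped, with a difference of 0.10 (95% interval -0.18 to 0.37). Gnas, which encodes the stimulatory G protein that couples incretin receptors to cAMP, averaged 6.65 ± 0.03 in Sel1L-deficient islets and 6.49 ± 0.04 in wildtype islets (SD, n = 3 each), a difference of 0.16 (95% interval -0.06 to 0.37). Impact, an inhibitor of the amino acid sensor GCN2, read 7.90, 7.76 and 7.80 in Sel1L-deficient islets and 7.94, 8.06 and 8.07 in wildtype islets. Impact and Gnas did not overlap between genotypes and did not pass the test (limma, adjusted p = 0.587 and 0.684).

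The members of the Dlk1 to Dio3 cluster showed small differences. Dlk1, a membrane protein related to Notch ligands, averaged 4.11 in Sel1L-deficient islets and 4.22 in wildtype islets, a difference of -0.11 (95% interval -0.38 to 0.16). The single-symbol set of the non-coding RNA Meg3 averaged 5.18 in Sel1L-deficient islets and 5.07 in wildtype islets, a difference of 0.11, and it is the set that lies among minus-strand neighbours although Meg3 is a plus-strand gene. Another 2 probe sets that the annotation gives to Meg3 together with microRNA genes were outside the rule. Dio3, a deiodinase that inactivates thyroid hormone, averaged 2.01 in Sel1L-deficient islets and 1.97 in wildtype islets, within the odorant receptor range.

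Differences took both signs within the Peg3 and Peg10 clusters. In the Peg3 cluster, Peg3, a zinc-finger gene, read 11.30, 11.17 and 11.16 in Sel1L-deficient islets and 11.09, 11.13 and 11.11 in wildtype islets. The difference of Peg3 was 0.10 (95% interval -0.13 to 0.32), at a level where RMA values can be compressed. Zim1 beside it differed by 0.41 and the ubiquitin protease gene Usp29, which shares the start region of Peg3, by -0.22. In the Peg10 cluster the retrotransposon-derived gene Peg10 differed by 0.24, Sgce by 0.32, the neurabin gene Ppp1r9a by 0.10, Asb4 by -0.13 and the calcitonin receptor gene Calcr by -0.11. Calcr stood at 1.93 in Sel1L-deficient islets and 2.05 in wildtype islets, within the odorant receptor range. Of these 8 genes Peg3, Zim1 and Sgce were without overlap, while 15.1% of all genes and 18% of those above the odorant receptor level were.

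In the Prader-Willi and Angelman region, Ube3a, an E3 ubiquitin ligase, read 7.84, 7.93 and 7.67 on its brighter set in Sel1L-deficient islets and 7.84, 7.78 and 7.86 in wildtype islets. Its difference was -0.01 with a 95% interval of -0.26 to 0.23. The MAGE family genes Ndn and Magel2 differed by -0.0018 (95% interval -0.28 to 0.28) and -0.14 (95% interval -0.40 to 0.12), and Magel2 averaged 2.29 in Sel1L-deficient islets and 2.43 in wildtype islets, within the odorant receptor range. In the distal chromosome 7 cluster, where Tssc4 lies, the transporter gene Slc22a18 differed by 0.15 and Ascl2, a trophoblast transcription factor gene at 1.82 in Sel1L-deficient islets and 2.14 in wildtype islets, by -0.32. Inpp5f, a phosphoinositide phosphatase gene, differed by -0.23.

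In all, 30 of the 35 members lay above the 95th percentile of the odorant receptor genes over the 6 arrays. The 5 at or below it were Magel2, Dio3, Ascl2, Calcr and Phlda2. The 8 members with the highest values were Peg3, Zim1, Impact, Ube3a, Igf2r, Grb10, Rasgrf1 and Peg13, and the last of these read 6.90, 6.86 and 6.77 in Sel1L-deficient islets and 6.96, 6.98 and 6.93 in wildtype islets. RMA values of different probe sets depend on the probes, so this order is not one of transcript number.

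Other imprinted genes, listed beside the members, were counted with the same fit. Of 40 listed 35 were measured, 0 passed, and 6 (17.1%) had an unadjusted p under 0.05, against 9.48% of all genes. Their median was 0.06 and 22.9% did not overlap between genotypes, against 15.1% of all genes and 18% of the genes above the odorant receptor level. Of the 35 measured, 5 averaged at or below that level. The extremes were Tnfrsf23, a decoy receptor gene near the Kcnq1 domain, at 5.87 in Sel1L-deficient islets and 6.77 in wildtype islets (difference -0.90, limma adjusted p = 0.216), and Dcn, which encodes decorin, a matrix proteoglycan of mesenchymal cells, at 5.31 and 4.64 in the same order (difference 0.67, limma adjusted p = 0.321).

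Factors that set or keep imprints had 0 of 20 past the threshold, with a median of -0.04. An unadjusted p under 0.05 occurred in 3 of them (15%), against 9.48% of all genes. These 3 were the chromatin remodeller gene Hells with -0.43, the de novo methyltransferase gene Dnmt3b with -0.42 and the maintenance methyltransferase gene Dnmt1 with -0.41 (limma, adjusted p = 0.463, 0.448 and 0.407). The groups of Hells overlapped. Dnmt3a and Dnmt3l, also on the list, differed by 0.01 and 0.05, and Dnmt3l averaged at or below the odorant receptor level. Zfp57, a zinc-finger protein that protects imprints, differed by 0.23 (95% interval -0.03 to 0.49), Trim28, its corepressor, by -0.14 and the insulator protein gene Ctcf by -0.02.

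A further list held 10 genes of the signal peptidase, the SERCA calcium pumps and other membrane proteins. Of the 10, 0 passed and 2 (20%) had an unadjusted p under 0.05, against 9.48% of all genes. These were the pump genes Atp2a2 with -0.40 (95% interval -0.64 to -0.15) and Atp2a3 with -0.34 (95% interval -0.65 to -0.03; limma, adjusted p = 0.293 and 0.486). The signal peptidase subunit genes Spcs1, Spcs2, Spcs3, Sec11a and Sec11c differed by -0.08, -0.07, -0.12, -0.16 and 0.16. Pln and Sln, also on this list, averaged at or below the odorant receptor level.

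Markers of cell types that an islet preparation can hold were counted with the same fit. The mean over 9 measured of 10 β-cell markers was 8.90 to 9.08 on the Sel1L-deficient arrays and 9.73 to 10.0 on the wildtype arrays. Of the 9 markers 4 fell, against 0.153% of all genes. The 9 differences were all negative but unequal, from -2.11 for Mafa to -0.09 for Iapp and -0.07 for Slc30a8. The mean over 10 endothelial markers was 6.59 to 6.78 on the Sel1L-deficient arrays and 6.09 to 6.50 on the wildtype arrays, with 0 past the threshold and 10 of 10 positive. That over 10 mesenchymal markers was 5.13 to 5.50 on the Sel1L-deficient arrays and 4.52 to 5.30 on the wildtype arrays, with 0 past the threshold and 9 of 10 positive. An unadjusted p under 0.05 (limma) occurred in 7 endothelial (70%) and 3 mesenchymal markers (30%), against 9.48% of all genes. Acinar markers, 4 measured of 6, were all negative with a median difference of -0.72 and array means of 6.99 to 9.50 in Sel1L-deficient islets and 7.67 to 9.72 in wildtype islets, with 0 past the threshold. Alpha-cell markers, 4 measured of 7, were all positive with a median of 0.22, and 7 of 8 leukocyte markers were negative with a median of -0.22, again with 0 past the threshold in each list. None of the β-cell, endothelial, mesenchymal, acinar or alpha-cell markers averaged at or below the odorant receptor level, and 1 leukocyte marker did. Their part in the difference of Nnat or of any other member was not tested. In RNA from whole islets, fewer cells of a type and less RNA per cell cannot be told apart.

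**Figure D4:**
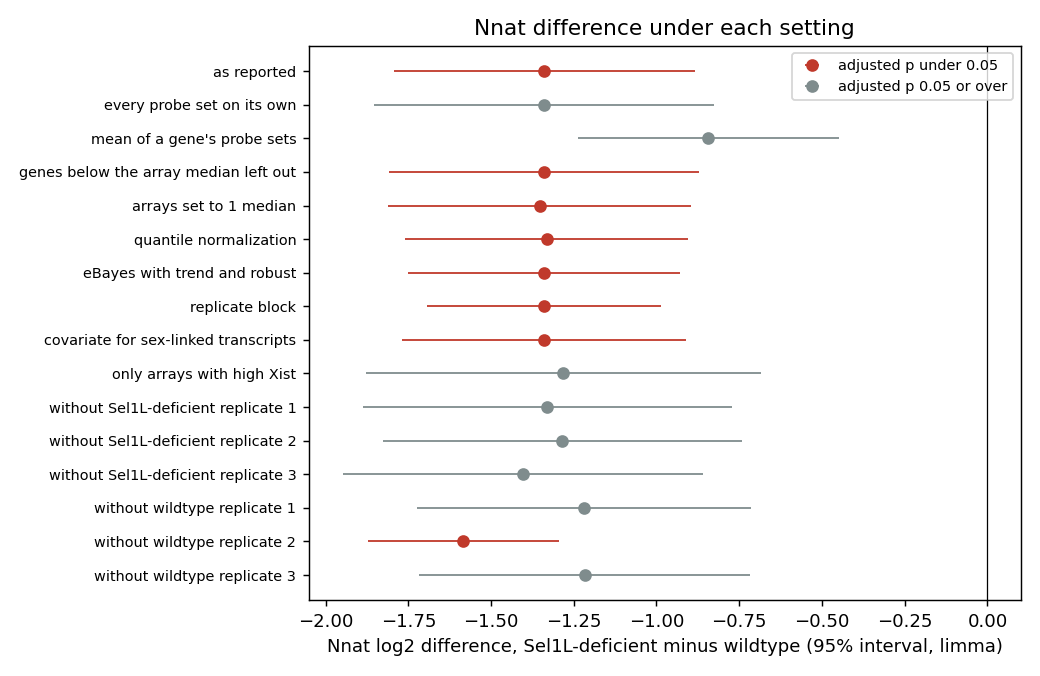
Nnat log2 difference, Sel1L-deficient minus wildtype (horizontal axis), with its 95% interval from limma, as reported and under 15 other settings; red points passed an adjusted p of 0.05 and grey points did not. The difference is negative under all of them, and it passed in 7 of the 15 other settings.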

How the data were processed

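The authors deposited 1 log2 value per probe set and array, summarised by RMA, per the submitters' processing notes, after whole-transcript sense-strand labelling, per the labels' protocols. RMA corrects background, normalizes between arrays and combines probes, and can compress large ratios. The RMA version, any filter and the base of the log are not given in the sources used here. Base 2 was taken because all values lay between 0.526 and 13.0. The table has no detection calls, and the number of arrays limits the precision.

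Probe sets were named from the platform annotation, with 1 symbol for 23521, several for 1814 and none here for 16010. A gene took its probe set with the highest mean, for 22180 genes. Differences were fitted with limma 3.58.1 in R 4.3.3 (lmFit, eBayes with the default prior, two-sided, Benjamini-Hochberg over all genes, threshold 0.05). The fit was tested on simulated data. No label ties replicates to separate animals, so the p-values cover only the spread among these arrays, part of which may be technical. It is not technical alone, since replicate 3 of each genotype differed from replicates 1 and 2 in Xist and Y-linked transcripts. Whether replicates 1 and 2 came from separate animals is not stated. Each Nnat probe set was also tested over all 41345 probe sets. Full values are given for the Nnat probe sets, members past the threshold, members that differed by at least 0.5 without overlap and the 8 brightest. Any other member was named with its values known. The members and lists were chosen with earlier results of these data known. Parental classes and gene roles are background knowledge. Strands and upstream sequences came from RefSeq tables of GRCm38.p6. Alternatives (probe set choice, filter, scaling, priors, replicate block, sex-linked transcripts, arrays left out) are in the closing section.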

Additional observations from a re-analysis of the deposited data

How the results depend on the processing

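The fall of Nnat kept its direction in all 15 alternatives and its side of the threshold in 7 of them. Its difference was -1.34 (limma, adjusted p = 0.258) with every probe set on its own, -0.84 (0.168) as the mean of both probe sets and -1.28 (0.257) on the 4 arrays with high Xist. Leaving out 1 array gave -1.58 to -1.22, with adjusted p from 0.0178 to 0.228. Over the alternatives the adjusted p ran from 0.00925 to 0.258. The number of members called was 1, and 0 under those 3 settings. Leaving out 1 array gave 0 to 1. Over all genes the count was 54, with 3 for every probe set on its own, 133 with trend and robust priors, 1 on the arrays with high Xist and 4 (without Sel1L-deficient replicate 1) to 29 (without Sel1L-deficient replicate 3) with 1 array left out.

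The median of the paternally expressed members stayed within the spread between arrays in all alternatives. That of the maternally expressed members, -0.012 as reported, was 0.089 with every probe set on its own and with the mean of a gene's probe sets, -0.069 without genes below the array median, -0.026 with arrays set to 1 median, 0.015 after quantile normalization, 0.076 on the arrays with high Xist and -0.068 to 0.059 without 1 array. It was -0.063 without Meg3, an alternative chosen after seeing the data. Of the other 34 measured members 0 passed in any alternative, 26 kept their sign in every alternative that tested them, and 8 near 0 changed it in at least 1.

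With the replicate number as a block, Nnat differed by -1.34 (limma, adjusted p = 0.0313), 36 genes were called against 54 without it, and no call on a member changed. Same-numbered arrays deviated together with correlations of 0.105, 0.072 and 0.21, the second too low for the numbers to be taken as pairs. Each array did correlate best with its own number, which is a hint from the data and not from the design. The highest correlation, 0.21, joined the replicate 3 arrays, which shared low Xist and raised Y-linked transcripts. These arrays also had the highest values of all 4 acinar markers measured. The part of these genes in the correlation was not tested. The number of arrays, 3 per genotype, limits the precision, and the 5 members within the odorant receptor range cannot be separated from background.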
